A study of Mus musculus with 81 samples.

Results

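RNA from LTR loci was compared between 4 DMSO and 5 TBT libraries of the P6 population, the EGFP-negative somatic cells of F3 fetal testes, with every LTR locus of the table taken as a member. These 9 libraries were chosen by generation, cell population and assay as labelled, and are 9 of the 81 samples of the series. All groups were OG2 (B6;CBA-Tg(Pou5f1-EGFP)2Mnn/J) animals kept on C57BL/6J, in which the Pou5f1 promoter and distal enhancer drive EGFP in germ cells. F0 dams received tributyltin (TBT) at 50 nM, or the vehicle DMSO, in drinking water with carboxymethyl cellulose from before mating until weaning, and their sires were not exposed. F1 and F2 animals were bred within their exposure group without mating siblings, so that the F3 fetuses, taken at E18.5, were themselves never given TBT. Neither the labels nor the methods tie a library to 1 animal or litter, so p-values measure only the spread between these libraries. The comparison asks whether RNA of endogenous retroviruses in somatic cells of the testis differs in descendants of TBT-exposed dams.

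Endogenous retroviruses are remnants of retroviral infections of the germline, and most copies are solitary long terminal repeats (LTRs) scattered within and between genes. Internal regions, whose names end in int, derive from the coding part of a provirus. DNA methylation and repressive chromatin keep most copies silent, while a copy inside a gene is also part of that gene's primary transcript, so reads there can come from the host gene. Somatic cells of the fetal testis include Sertoli cells, which surround the germ cells, steroid-producing Leydig cells, peritubular and interstitial cells, endothelial cells and macrophages. TBT is an organotin known to bind the nuclear receptors PPAR gamma and RXR.

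The sequence of the called locus with the lowest p is shown for each of 6 genes, to identify the LTR fragments whose values are described further on. Reads are not particular to these fragments, since those of Akr1e1 and Lama2 each had the same reads in all 9 libraries as 3 other called loci of the gene, and the Thra fragment nearly the same reads as the exon locus of that gene. They are GRCm38 plus-strand reference sequences in lower case, with no base marked, and the Erbb2 entry holds the first 300 of 398 bases.
Akr1e1 RLTR24 (chr13:4604492-4604590): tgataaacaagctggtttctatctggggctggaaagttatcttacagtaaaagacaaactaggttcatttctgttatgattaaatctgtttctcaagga
Thra MT2B (chr11:98758839-98758860): gtccagcagtggtggcacacac
Erbb2 MTD (chr11:98430110-98430409): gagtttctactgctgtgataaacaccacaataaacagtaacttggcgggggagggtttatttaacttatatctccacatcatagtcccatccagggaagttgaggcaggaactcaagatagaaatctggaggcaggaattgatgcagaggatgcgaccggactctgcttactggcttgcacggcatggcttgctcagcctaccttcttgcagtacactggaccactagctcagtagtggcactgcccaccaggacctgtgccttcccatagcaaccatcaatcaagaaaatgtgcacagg
Heg1 MamGypLTR1b (chr16:33748733-33748808): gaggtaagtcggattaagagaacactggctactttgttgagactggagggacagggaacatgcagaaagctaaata
Notch2 ORR1F (chr3:98122613-98122802): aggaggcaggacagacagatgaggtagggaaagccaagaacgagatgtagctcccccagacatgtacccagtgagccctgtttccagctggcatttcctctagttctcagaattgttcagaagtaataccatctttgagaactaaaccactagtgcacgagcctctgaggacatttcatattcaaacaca
Lama2 MTE2b (chr10:27244639-27244719): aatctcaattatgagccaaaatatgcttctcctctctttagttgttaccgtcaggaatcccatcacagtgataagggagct

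The table held 970384 LTR loci of 680 RepeatMasker species, and 226293 of them had at least 1 read in these libraries. The DMSO libraries held 4104928 to 5032020 reads at LTR loci and the TBT libraries 4815778 to 7760769, where a read counted at several loci is counted each time. Values are given in CPM, reads at a locus brought to a common library total and scaled by the authors with TMM, a method that adjusts libraries for their composition. Sums over the loci of a gene are called gene totals here. They measure reads counted at LTR loci inside the gene, most in introns and some in exons, and not the whole messenger RNA. A read counted at several loci of a gene enters its total once for each. Whether reads credited to an intron locus lie on the LTR itself was not tested. Fold changes are log2 differences of CPM plus 0.197, the value of about 1 read, which understates the change of low loci, and higher and lower means refer to this log2 scale. A locus, gene or species was called where its limma FDR, the Benjamini-Hochberg adjusted p over all features tested, was under 0.05. Loci in introns received 90.5% ± 0.0497 (SD, n = 4) of the reads in DMSO and 90.5% ± 0.170 (SD, n = 5) in TBT, loci in exons 8.17% ± 0.0467 and 8.12% ± 0.0481, and loci outside genes 1.33% ± 0.0768 and 1.36% ± 0.126. None of the 3 shares passed a two-sided exact permutation test over all assignments of the libraries to groups of 4 and 5 (adjusted p = 0.940 or higher for introns and loci outside genes, and 0.619 for exons, where the smallest raw p possible is 0.00794). Neighbouring loci were not independent, because 25641 of 64316 neighbouring pairs in the same intron (39.9%) held identical reads in all 9 libraries, against 437 of 19955 pairs in different introns of 1 gene (2.19%).

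The labelled somatic identity was checked on reads at LTR loci in marker genes. Summed Sertoli cell markers lay between 1613 and 2713 CPM in the 9 libraries, Leydig cell markers between 1409 and 1964, and peritubular and interstitial markers between 1498 and 2114. In the EGFP-positive P4 and P5 germ cells of F3, tables normalized separately, the medians of the 3 lists were 423 and 412 CPM for Sertoli cell markers, 1016 and 771 CPM for Leydig cell markers and 27.9 and 39.0 CPM for the last list. At its highest, the Leydig cell sum of a P4 library, 1833 CPM, lay within the range of P6 cells. Germ cell markers summed to 14317 CPM in P4 and 8173 CPM in P5 at the median. In P6 cells they summed to 23.2, 14.4, 227 and 208 CPM in DMSO libraries 1 to 4 and to 21.3, 20.5, 22.4, 16.3 and 23.0 CPM in TBT libraries 5 to 9. DMSO libraries 3 and 4 therefore stood apart from the other 7 in germ cell RNA, and results are also given without these libraries, an alternative chosen after seeing the data. Of the 18 germ cell genes, 13 had LTR loci and 6 passed the minimum for testing, among them Tdrd9 (24.8 ± 27.9 CPM in DMSO, 1.53 ± 1.17 in TBT) and Mael (24.9 ± 29.3 and 0.301 ± 0.433), both factors of transposon silencing in germ cells. The defining genes Dazl and Pou5f1 had a median of 0 CPM over the P6 libraries. In bulk RNA, fewer cells of a type and less RNA per cell cannot be told apart.

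Of 104835 loci tested, 21 were higher in TBT (0.02%) and 15 were lower (0.0143%), and 8346 (7.96%) had an unadjusted limma p under 0.05. The 36 called loci held 30 distinct read profiles and lay in 17 genes or places, and in each the 4 DMSO values did not overlap with the 5 TBT values. Over all tested loci, 1.76% were higher with groups apart in this sense and 1.14% were lower. With DMSO libraries 3 and 4 left out, 13 of the 36 loci still had an FDR under 0.05, and the highest FDR of the 36 was 0.349. These 13 were 5 of the 7 loci of Akr1e1, 2 of the 9 of Lama2, those of Erbb2, Mex3c and Mro, the MTA_Mm-int copy and the IAPEY4_I-int copies on chromosomes 6 and 16. The number called higher also moved with single libraries, to 2 without TBT library 6, to 6 to 8 without any other TBT library, and to 39 and 123 without DMSO libraries 4 and 2. Of the higher loci 16 of 21 were of the ERVL-MaLR class, which includes the ORR1 and MT repeats and makes up 52.4% of the loci tested, and 8 of these 16 lay in Lama2. Of the 15 lower loci, 7 were ERVK and 5 were ERV1, classes that hold 26.9% and 5.00% of the loci tested, and 6 of these 12 lay in introns of Akr1e1. By position, 7 of 6486 tested exon loci were called (0.108%), 24 of 97085 intron loci (0.0247%) and 5 of 1264 loci outside genes (0.396%). Fitted over loci outside genes only, 1 of these 5 was called, the IAPEY4_I-int copy on chromosome 16, and the other 4 were not.

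**Figure D1:**
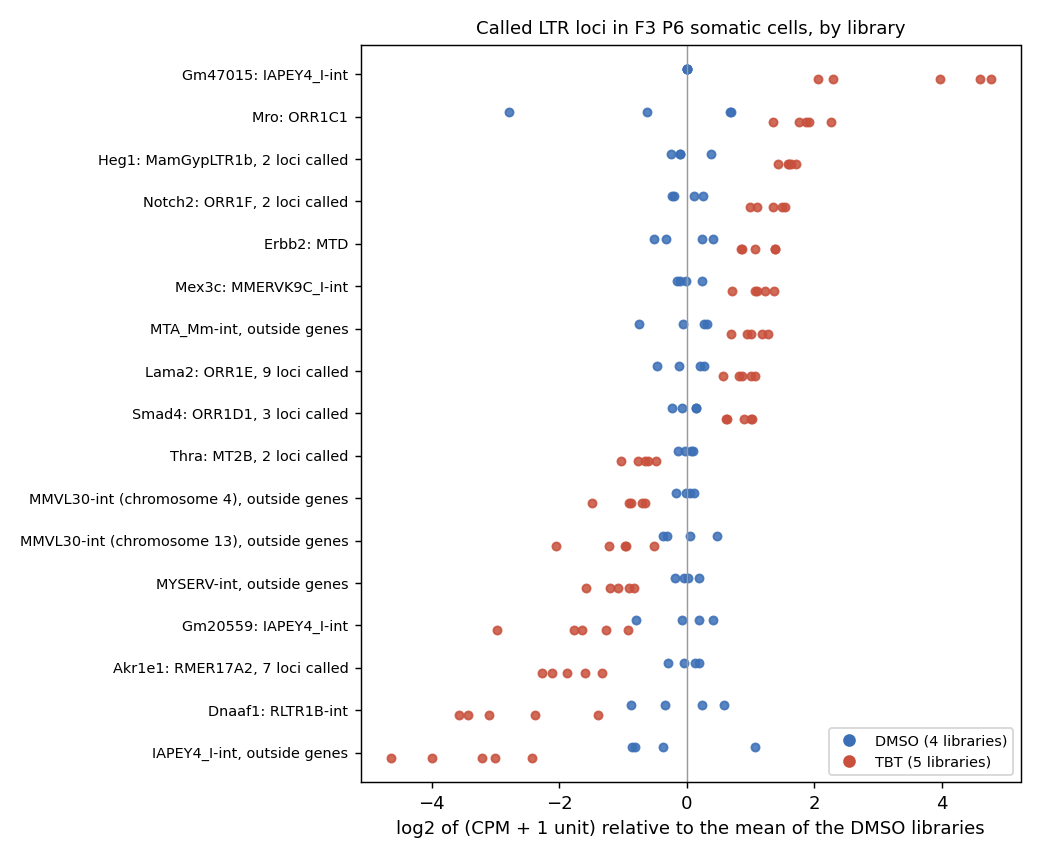
Each row shows 1 called locus for each of the 17 genes or places, and each point is 1 library, plotted as log2 CPM plus 1 unit relative to the mean of the DMSO libraries. DMSO and TBT points do not overlap in any row, and the lowest fold change is that of the IAPEY4_I-int copy on chromosome 16, at -3.21.

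The clearest host gene was Akr1e1, which encodes an aldo-keto reductase that reduces a sugar derivative. All 7 of its tested LTR loci, in 4 introns (a pair of RMER17A2, a pair of RLTR24, RLTR13D6, RLTR16B_MM and MLT1J2), fell in TBT, with log2 fold changes from -1.82 to -1.65 (limma FDR 0.000763 to 0.00614). The RLTR24 fragment printed for Akr1e1 had 10.1, 11.9, 11.4 and 8.47 CPM in the DMSO libraries and 2.02, 2.72, 3.34, 2.28 and 4.03 CPM in the TBT libraries. The lowest DMSO value was above the highest TBT value by a wide margin. Summed over the 8 loci of the gene, Akr1e1 reached 71.8, 81.9, 77.1 and 79.8 CPM in DMSO and 14.7, 25.1, 22.5, 20.3 and 27.3 CPM in TBT, a log2 fold change of -1.84 (SE 0.171, limma FDR 0.0036). It was the only gene total called of 8442 tested (0.0118%). Leaving out DMSO libraries 3 and 4, the fold change of the total was -1.82 and its FDR 0.116. Counting loci with identical reads once, the 7 loci gave 4 profiles.

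The same gene was read in related populations, where each table was normalized separately. In F1 P6 cells, whose fetuses were directly exposed, Akr1e1 had 91.4 ± 10.5 CPM in DMSO (SD, n = 5) and 100.1 ± 54.6 CPM in TBT (SD, n = 7), a log2 fold change of -0.02 (limma FDR 0.999). F3 P4 germ cells had 100.1 ± 38.1 and 51.4 ± 36.7 CPM (-1.49, limma FDR 0.807), and F3 P5 germ cells 42.8 ± 32.7 and 55.6 ± 39.6 CPM (0.59, limma FDR 0.999). No difference in Akr1e1 passed the test in these 3 populations, and whether the populations differ from each other was not tested. Some germ cell libraries were shallow. TBT libraries 5 and 9 of P4 held 833449 and 1187234 reads at LTR loci, and TBT library 5 of P5 held 246520. The other F3 germ cell libraries held 1606422 or more. The printed RLTR24 fragment had no read in P4 TBT library 9, P5 TBT library 5 and P5 DMSO library 2. Germ cell means and tests, here and below, rest in part on such libraries.

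Lama2, which encodes the alpha chain of a laminin found in the basement membrane around tubules and muscle, contributed 9 of the 21 higher loci, in 4 introns (copies of ORR1E, MTE2b and its internal region, RLTR17B_Mm, MLT1A, MLT1A0 and MTD). The MTE2b fragment printed for Lama2 had 11.7, 15.3, 9.18 and 14.8 CPM in DMSO and 25.7, 23.3, 18.9, 26.9 and 22.5 CPM in TBT, a log2 fold change of 0.89 (SE 0.156, limma FDR 0.0326). Without DMSO libraries 3 and 4 the fold change was 0.79 (limma FDR 0.112). DMSO library 3 was the lowest of the 9. Along the gene, all 131 tested loci had a higher mean in TBT, 129 with an unadjusted limma p under 0.05 and 50 with groups apart, against 7.96% and 1.76% over all loci, and their log2 fold changes lay between 0.30 and 0.94 with a median of 0.58. These 131 loci held 81 distinct profiles and lie in 1 gene, where neighbours share reads, so they are not independent observations. The Lama2 total was 1926, 2597, 1553 and 2162 CPM in DMSO and 3151, 3100, 2864, 2944 and 2824 CPM in TBT. Its log2 fold change of 0.55 (SE 0.122) did not pass over all genes (limma FDR 0.326), although the groups did not overlap. In F1 P6 cells Lama2 had 1359 ± 270.2 CPM in DMSO and 1164 ± 601.8 CPM in TBT (-0.45, limma FDR 0.999).

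**Figure D2:**
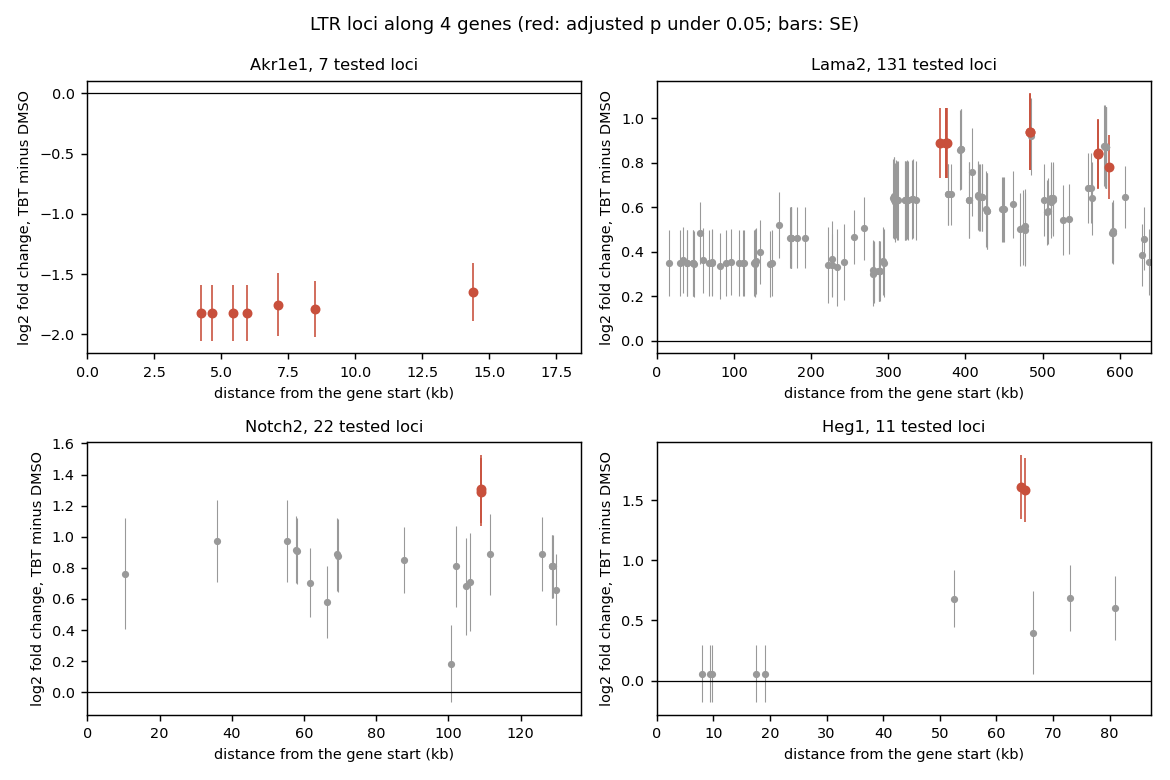
The log2 fold change of each tested LTR locus is plotted against its distance from the gene start for Akr1e1 (7 loci), Lama2 (131), Notch2 (22) and Heg1 (11), with called loci marked. All loci of Akr1e1 lie below 0 and all loci of the other 3 genes lie above 0.

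Among signalling receptors, Notch2 and Erbb2 carried higher loci. The 2 called loci of Notch2, which encodes a receptor of the Notch pathway, were ORR1F fragments in an exon of the overlapping annotated genes Notch2 and Gm42820, whose reads cannot be told apart. The fragment printed for Notch2 held 18, 11, 13 and 13 reads in DMSO and 47, 53, 51, 38 and 39 reads in TBT (log2 fold change 1.31, SE 0.219, limma FDR 0.0218). Without DMSO libraries 3 and 4 the fold change was 1.28 (limma FDR 0.0892). Every TBT value was above every DMSO value. All 22 tested loci of Notch2 had a higher mean in TBT, 21 with an unadjusted limma p under 0.05, against 7.96% over all loci, with a median log2 fold change of 0.83. The Notch2 total was 79.6 ± 12.4 CPM in DMSO and 137.6 ± 19.7 in TBT (0.79, SE 0.137, limma FDR 0.299). Erbb2, which encodes a receptor tyrosine kinase of the EGF receptor family, had 1 LTR locus with reads enough to test, the MTD element printed for it, with 7.14, 12.2, 8.19 and 13.8 CPM in DMSO and 27.2, 27.3, 18.6, 19.0 and 21.9 CPM in TBT (1.16, SE 0.181, limma FDR 0.0111). Here the lowest TBT library was above the highest DMSO library, and without DMSO libraries 3 and 4 the FDR was 0.0190.

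Heg1, which encodes a membrane receptor of endothelial and heart development, had 2 called loci in 1 intron, MamGypLTR1b and RLTR51A_Mm. The MamGypLTR1b fragment printed for Heg1 held 7, 9, 5 and 7 reads in DMSO and 27, 29, 34, 26 and 33 reads in TBT, a log2 fold change of 1.61 (SE 0.266, limma FDR 0.0211). All 11 tested loci of Heg1 had a higher mean in TBT, but only 5 had an unadjusted limma p under 0.05, against 7.96% over all loci, and the total had a log2 fold change of 0.49 (limma FDR 0.502). The called difference lay in 1 intron of the gene.

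Thra, which encodes thyroid hormone receptor alpha, lies 329 kb from the Erbb2 locus on chromosome 11 and fell where Erbb2 rose. Its MT2B fragment of 22 bases, printed with the sequences, had 35.3, 30.8, 33.2 and 36.2 CPM in DMSO and 16.5, 22.1, 21.5, 19.9 and 24.2 CPM in TBT (-0.71, SE 0.125, limma FDR 0.0362). An MT2B2 locus of 82 bases in a Thra exon gave -0.69 (limma FDR 0.0421). Both loci had all DMSO libraries above all TBT libraries. Without DMSO libraries 3 and 4 they gave -0.67 and -0.66, both with a limma FDR of 0.194.

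A region of 306 kb on chromosome 18 held called loci in 3 genes. The MMERVK9C_I-int fragment in an exon of Mex3c, an RNA-binding ubiquitin ligase, had 7.73, 6.98, 7.19 and 9.26 CPM in DMSO and 18.4, 16.5, 12.9, 17.0 and 20.5 CPM in TBT (1.10, SE 0.161, limma FDR 0.00601). Smad4, the shared mediator of TGF-beta and BMP signals, had 3 called loci in 1 intron, a pair of ORR1D1 and an ORR1C2, with log2 fold changes of 0.83 to 0.85 (limma FDR 0.0211), while its other loci gave smaller values, with a median over 20 tested loci of 0.17. Mro, a gene of the developing testis that Sertoli cells express, had 1 called locus. This ORR1C1 locus in an exon held 38, 13, 2 and 38 reads in DMSO and 124, 102, 139, 58 and 104 reads in TBT (2.34, SE 0.431, limma FDR 0.0421), and a second ORR1C1 locus in an exon gave 1.96. The other 6 tested Mro loci, all intronic, gave negative values down to -0.77 and none was called. Of the 8 tested Mro loci 6 had an unadjusted limma p under 0.05, against 7.96% over all loci, so most intronic ones did. At 2 higher loci and 1 lower locus the groups were apart, against 1.76% and 1.14% over all loci. The gene total of Mro did not differ beyond the spread (-0.11, limma FDR 0.913). Between and beyond these genes, the totals of Me2 (-0.38, limma FDR 0.518) and Mapk4 (-1.40, limma FDR 0.299), which encode a malic enzyme and an atypical MAP kinase, had lower means in TBT and were not called.

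Of the called loci in protein-coding genes, that of Dnaaf1, a factor for assembly of cilia and sperm tail motors, had the lowest fold change. Its RLTR1B-int locus had 11, 22, 13 and 32 reads in DMSO and 8, 1, 5, 1 and 2 reads in TBT (-2.67, SE 0.480, limma FDR 0.0386). The highest TBT library came close to the lowest DMSO library. The same locus had 51.2 ± 26.5 CPM in DMSO and 33.8 ± 20.3 CPM in TBT in F3 P4 germ cells, and 43.7 ± 32.8 and 47.7 ± 29.8 CPM in F3 P5 germ cells, against 4.17 ± 1.83 and 0.560 ± 0.542 CPM in P6 cells, and its P6 value without DMSO libraries 3 and 4 was -2.46 (limma FDR 0.343). The part of germ cell RNA in this difference was not tested.

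IAPEY4_I-int, the internal region of an intracisternal A-particle family of ERVK proviruses, held 3 called copies that went in different directions. The copy at chr16:3625352-3628768, outside annotated genes, held 36, 45, 30 and 142 reads in DMSO and 8, 2, 5, 11 and 8 reads in TBT, a log2 fold change of -3.21 (SE 0.405, limma FDR 0.000763). DMSO library 4 was far above the others, and without DMSO libraries 3 and 4 the value was -2.84 (limma FDR 0.0320). No read fell on this copy in the 9 F3 P4 libraries, while F3 P5 germ cells had 0.577 ± 1.15 CPM in DMSO and 3.13 ± 3.51 in TBT, and F1 P6 cells 7.83 ± 4.91 and 5.67 ± 3.18. The copy at chr6:3333741-3337110, in an exon of the overlapping annotated genes Gm20559, Gm43197 and Gm43198, whose reads cannot be told apart, held 101, 104, 40 and 84 reads in DMSO and 39, 12, 71, 24 and 35 reads in TBT (-1.65, SE 0.294, limma FDR 0.0371). Its raw reads overlapped between groups, but the CPM values, from 9.92 up in DMSO and up to 9.13 in TBT, did not. The copy at chr10:79413253-79416675, in an exon of Gm47015, had no read in any DMSO library and 28, 17, 6, 22 and 4 reads in TBT. Set against 3 reads per DMSO library, which a count of 0 allows for counting error alone, it was at least 4.29-fold higher in TBT. Its limma FDR of 0.0421 became 0.0892 without DMSO libraries 3 and 4. With no DMSO read, this copy passed the minimum for testing through TBT alone, so its FDR is no independent support. Over the species, 54 of 515 copies were tested, 23 with a higher and 31 with a lower mean in TBT, and their median log2 fold change was -0.07, against 0.02 over all loci.

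MMVL30-int, the internal region of VL30 retrotransposons of the ERV1 class, had 2 called copies outside genes, both lower in TBT. The copy at chr13:55185025-55188682 had 66.2, 69.6, 119.6 and 88.8 CPM in DMSO and 59.9, 20.5, 44.2, 36.6 and 43.9 CPM in TBT (-1.11, SE 0.202, limma FDR 0.0421). TBT library 5 lay just under the lowest DMSO library. In F1 P6 cells this copy had 22.9 ± 7.54 CPM in DMSO and 45.7 ± 14.0 in TBT (0.98, limma FDR 0.907), and without DMSO libraries 3 and 4 its F3 value was -0.80 (limma FDR 0.349). The copy at chr4:149434582-149437410 had 37.7, 33.8, 39.4 and 41.0 CPM in DMSO and 20.6, 13.4, 24.0, 23.2 and 20.2 CPM in TBT (-0.92, SE 0.144, limma FDR 0.0111). Groups were well separated at this copy. Of 951 MMVL30-int copies 110 were tested, 43 with a higher and 67 with a lower mean, against 53.6% higher over all loci. Their median was -0.09, against 0.02 over all loci. Of the 110, 21 had an unadjusted limma p under 0.05, against 7.96% over all loci. The groups were apart at 2 higher and 8 lower copies, against 1.76% and 1.14% over all loci. The remaining called loci outside genes were a MYSERV-int copy at chr4:147870982-147871807, with 19.5 ± 2.17 CPM in DMSO and 9.02 ± 1.76 in TBT (-1.11, limma FDR 0.00601), and an MTA_Mm-int copy at chr2:175127462-175128557, with 8.04 ± 2.44 and 16.6 ± 2.60 CPM (1.07, limma FDR 0.0386).

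**Figure D3:**
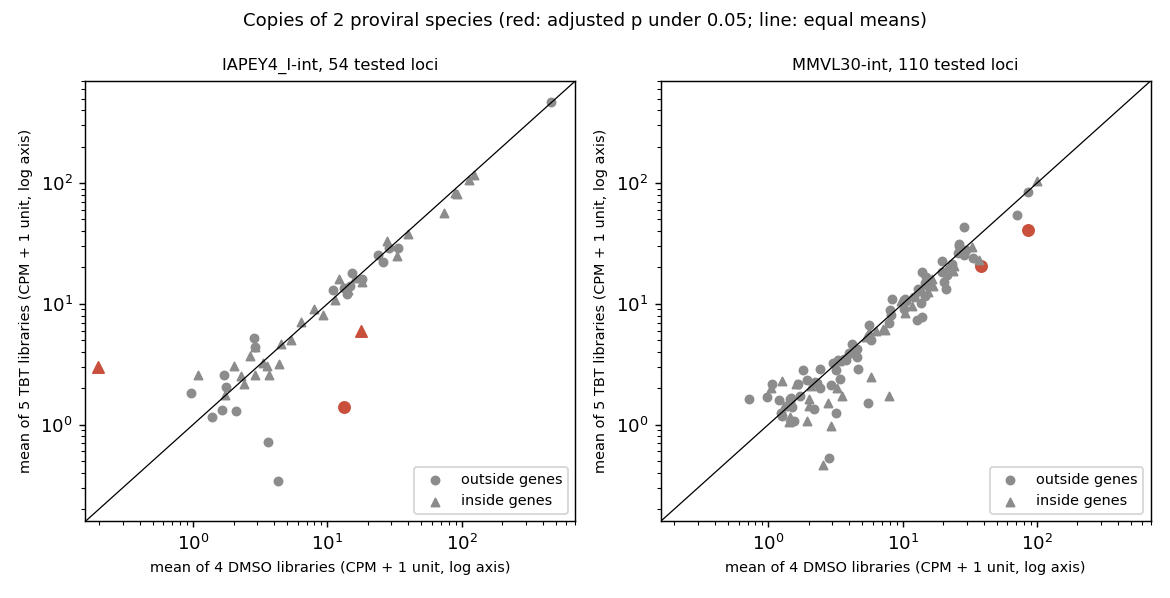
Mean CPM in TBT is plotted against mean CPM in DMSO on log axes for the 54 tested copies of IAPEY4_I-int and the 110 of MMVL30-int, with called copies marked. Most copies lie near the diagonal, and the called ones are 1 above and 2 below it for IAPEY4_I-int and 2 below it for MMVL30-int.

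Copies were also summed per species and per family. Of 284 species summed over loci outside genes, 10 (3.52%) had an unadjusted limma p under 0.05 and 0 were called by limma or edgeR's quasi-likelihood test, while edgeR's likelihood ratio test and DESeq2 each called 1 lower. The lowest p belonged to RMER17B, an ERVK LTR, with 14.5 CPM on average in DMSO, where the lowest library had 8.13, and 3.49, 7.30, 6.17, 7.86 and 3.41 CPM in TBT (-1.34, SE 0.334, limma FDR 0.167). Its groups were apart, with DMSO library 1 only slightly above the highest TBT library. The totals outside genes of the species with called copies there had FDR values of 0.901 or higher and overlapping groups, with MMVL30-int at -0.18, IAPEY4_I-int at -0.03, MTA_Mm-int at 0.27 and MYSERV-int, of which the called copy is a large part, at -0.49 (32.4 CPM in DMSO and 22.3 in TBT, an unadjusted limma p under 0.05). Whether totals and called copies differ was not tested. Of 16 retroviral families, 0 had an adjusted p under 0.05 by the exact permutation test, over all loci or outside genes. The lowest exact permutation p, 0.0794 (adjusted p = 0.635), was that of the VL30 family (2592 ± 253.0 CPM in DMSO and 2346 ± 126.5 in TBT, a log2 difference of -0.14) and of MERVL (5477 ± 136.1 and 5348 ± 68.0, -0.03).

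Summed per gene, reads at LTR loci gave 404 of 8442 genes (4.79%) with an unadjusted limma p under 0.05 in the higher direction and 318 (3.77%) in the lower. In 149 genes (1.76%) the TBT libraries were all above the DMSO libraries, and in 141 (1.67%) all below. No gene total was called higher by limma or edgeR's quasi-likelihood test, but edgeR's likelihood ratio test called 12 and DESeq2 41. After Akr1e1, the lowest p was that of Rab6b, a GTPase of the Golgi, with 69.6, 92.5, 113.9 and 83.5 CPM in DMSO and 42.1, 48.1, 38.2, 36.4 and 25.3 CPM in TBT (-1.25, SE 0.195, limma FDR 0.246). It was named after its values were seen. Rab6b also had a lower mean in F1 P6 cells (98.1 ± 23.7 CPM in DMSO, 54.5 ± 25.0 in TBT, -0.95, limma FDR 0.954).

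**Figure D4:**
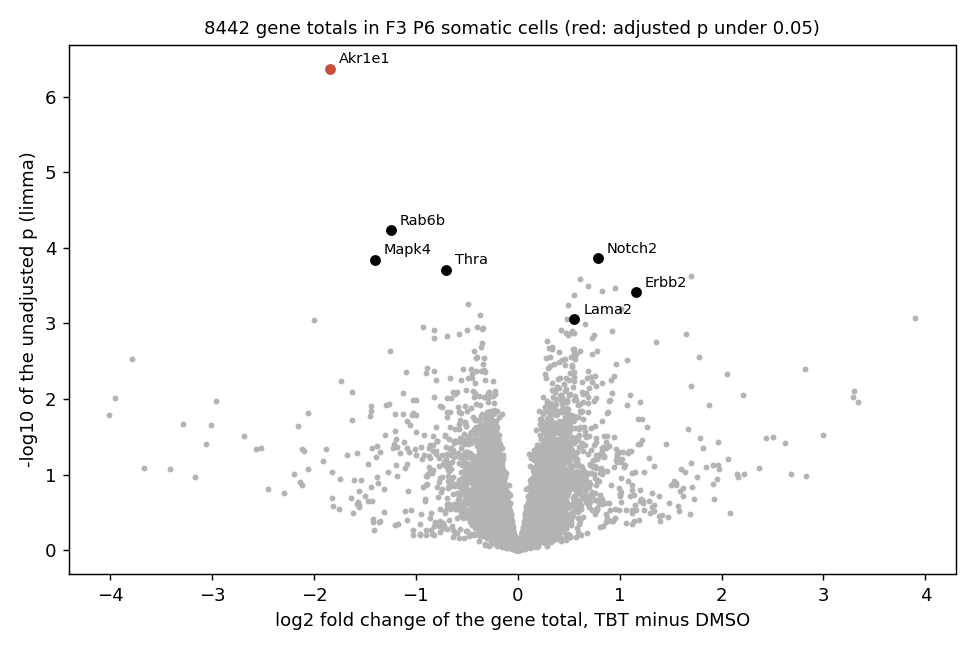
For each of 8442 gene totals the log2 fold change is plotted against -log10 of the limma p. Akr1e1 alone is past the FDR threshold, at -1.84, and the cloud is centred near 0.

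Extracellular matrix genes of the basement membrane, the sheet of laminin and type IV collagen on which Sertoli, endothelial and muscle cells rest, had a higher mean log2 value in TBT for 15 of 19 tested totals, of which none was called. Of the 19, 10 had an unadjusted limma p under 0.05 in the higher direction, against 4.79% of all genes. In the lower direction 0 had one, against 3.77%. The median log2 fold change of the 19 was 0.25, against -0.00078 over all genes. As with all lists here, the members were chosen with earlier results of these data known, and Lama2 is among the 10. The counts therefore describe the list and are not an independent test. By level the 19 totals were led by Lama2, Col4a1 (1922 ± 339.0 CPM in DMSO, 2405 ± 65.3 in TBT, 0.34, limma FDR 0.471) and Itgb1, a laminin receptor chain, which gave 0.08 (limma FDR 0.686) and is not among the 10. Summed CPM over the list lay between 10030 and 13804 in DMSO and between 14242 and 14883 in TBT, and with Lama2 taken out between 8477 and 11207 and between 11418 and 11948. The sums did not overlap either way, and the lowest was that of DMSO library 3. Over the other 7 libraries, 5 totals had such a p in the higher direction, with a median of 0.11, against 4.12% of genes. In F1 P6 cells 0 of 17 tested totals had an unadjusted limma p under 0.05, with a median of -0.20. Markers of endothelial cells, which also make basement membrane, summed to 115.0 to 166.1 CPM in DMSO and 164.2 to 205.2 CPM in TBT, and 1 of 5, the angiopoietin receptor Tek, had an unadjusted limma p under 0.05 (0.92, FDR 0.418), while Cdh5, a junction protein of vessels, gave 0.28. The median of the 5 was 0.40. Their part in the basement membrane result was not tested.

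The Notch and TGF-beta pathways were read in the same way. Of 12 Notch pathway totals 1, Notch2, had an unadjusted limma p under 0.05, and the list had a median of 0.10. The list summed to 877.5 to 961.8 CPM in DMSO and 1042 to 1075 in TBT, and without Notch2 to 780.8 to 885.7 and 891.6 to 938.8. Adam10, the protease that cleaves Notch receptors, gave 0.23 (limma FDR 0.612). Of 20 totals of TGF-beta, activin and BMP signalling, 4 had an unadjusted limma p under 0.05, all higher (Tgfbr3, Ltbp4, Smad4 and Smad5, at 0.27 to 0.34), against 4.79% higher and 3.77% lower over all gene totals. None was called, and the list had a median of 0.12. Without DMSO libraries 3 and 4, 3 of the 20 had such a p in the higher direction, against 4.12% of genes, and in F1 P6 cells 0 of 19 had one by limma.

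Steroidogenic genes of Leydig cells held 4 totals of 10 tested with an unadjusted limma p under 0.05, all lower in TBT, against 3.77% lower over all gene totals, and the list had a median of -0.11. These were Cyp17a1, the lyase on the way to androgens, with 23.4, 12.6, 24.1 and 15.4 CPM in DMSO and 9.37, 10.4, 10.5, 7.03 and 12.1 CPM in TBT (-0.89, SE 0.243), Cyp11a1, which makes pregnenolone from cholesterol (-0.59), Fdx1, its electron donor (-0.26), and Scarb1, a receptor for lipoprotein cholesterol (-0.18). None was called (lowest limma FDR 0.403), and for Cyp17a1 alone were the groups apart. With DMSO libraries 3 and 4 left out, 1 total had such a p in the higher and 2 in the lower direction, against 4.12% and 2.61% of genes. In F1 P6 cells 3 of 10 were higher by the same criterion and 0 lower, with a median of 0.27, against 2.12% higher, 2.11% lower and a median of -0.02 over the 7816 gene totals tested there.

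The markers of other somatic cells were read alongside. Of 9 Sertoli cell totals 0 had an unadjusted limma p under 0.05, with a median of 0.03, Gata4 at -0.06 and Dmrt1 at 0.19. Of 7 peritubular and interstitial totals, 2 had such a p, both higher against 4.79% of all gene totals, Pdgfra (91.9 ± 8.70 CPM in DMSO, 132.8 ± 19.3 in TBT, 0.52, limma FDR 0.326) and Ptch1, the hedgehog receptor (0.47), while Dcn and Myh11, the highest by reads at LTR loci, gave -0.02 and 0.18. The median of the 7 was 0.09. Of 3 macrophage totals 0 had such a p, with Adgre1 at -0.19, Ptprc at -0.12 and Mrc1, the mannose receptor, at 1.15 (7.64 ± 7.67 CPM in DMSO, 11.5 ± 2.94 in TBT, limma FDR 0.618). Among 6 germ cell totals, 5 had a lower mean log2 value in TBT and 0 were called, with a median of -1.67. Most of the 6 passed the minimum for testing only through DMSO libraries 3 and 4, which largely set their direction and median. Tdrd9 (-2.57, limma FDR 0.575) and Piwil2 (-1.19, limma FDR 0.548) had an unadjusted limma p under 0.05, against 3.77% lower over all gene totals. Mael gave -3.41, Morc1 -1.82 and Ddx4 -1.53. Without DMSO libraries 3 and 4 only 2 germ cell totals could still be tested and 0 had such a p, with a median of 0.10.

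Lists tied to TBT and to retroviral control were also read. Of 12 nuclear receptor and cofactor totals 1 was higher and 1 lower at an unadjusted limma p under 0.05. These were Rxra (0.35, FDR 0.579), a receptor that TBT binds, and Thra, and the list had a median of -0.08. The coregulators Ncoa1 and Ncor1, the highest by reads, gave 0.15 and -0.14. With DMSO libraries 3 and 4 left out, 2 of the 12 were higher and 1 lower at such a p, against 4.12% and 2.61% of genes. The higher ones were Rxra (0.58) and Ppara (1.14), the lower one was Thra (-0.67), and none was called. The median was then -0.14. With all libraries Ppara gave 0.51 (limma FDR 0.674). Of 12 totals of adipocyte differentiation and lipid synthesis 2 had such a p, both higher, Pdgfrb (0.32, limma FDR 0.528) and Cd36 (1.09, limma FDR 0.579), against 4.79% of all gene totals, with a median of 0.11. Without DMSO libraries 3 and 4 only 1 had such a p and the median turned to -0.05. Acly, which supplies acetyl-CoA for lipid synthesis, gave 0.11 (limma FDR 0.800) and Scd2 gave 0.07. Of 23 retrovirus silencing totals, which include HUSH and H3K9 methylation genes such as Pphln1 (-0.03) and Ehmt1 (0.11), 0 had such a p, with a median of 0.02. Of 7 aldo-keto reductase totals, Akr1e1 was called and Akr1b8 had an unadjusted limma p under 0.05 (-0.25, FDR 0.541), while Akr1cl gave -0.02 and Akr1a1 -0.10.

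**Figure D5:**
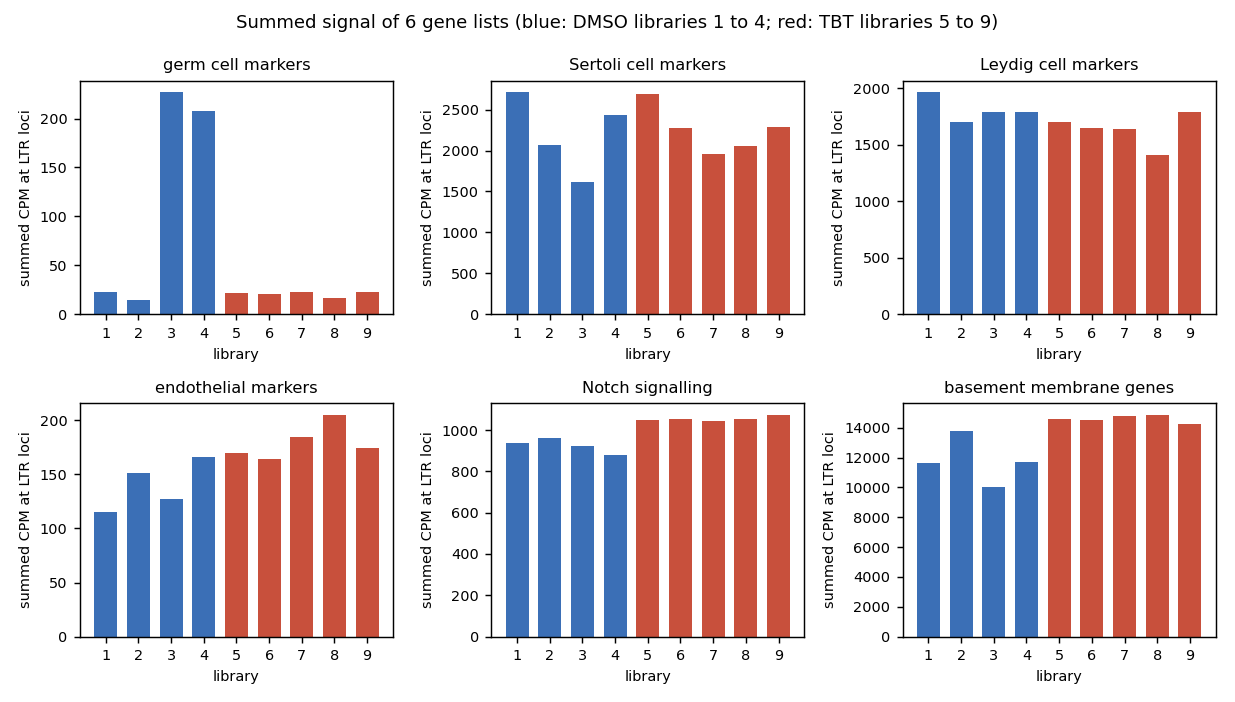
Bars show the summed CPM of 6 gene lists in each of the 9 libraries, starting at 0, with DMSO and TBT libraries in different colours. The basement membrane and Notch sums of all 5 TBT libraries are above those of all 4 DMSO libraries, and the germ cell sum is high in DMSO libraries 3 and 4.

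Methylated DNA, captured by a methyl-CpG binding protein (MBD-seq), was counted in windows in 5 DMSO and 7 TBT libraries of F3 P6 cells that are not labelled as those of the RNA. Total counts lay between 1105120 and 1556376. Of 47563 windows tested by edgeR's quasi-likelihood test 0 had an FDR under 0.05 and 2469 (5.19%) an unadjusted p under 0.05. In the genes and places of called loci there were 81 windows, and of the 24 that could be tested 0 had an unadjusted p under 0.05 and 0 were called by DESeq2. Akr1e1 held 1 tested window, with a log2 fold change of -0.05, Lama2 4 (-0.03 to 0.31), Notch2 6 (-0.29 to 0.25) and Heg1 4 (0.01 to 0.18). Only 2 windows overlapped a called locus, so the called loci themselves were hardly covered.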

How the data were processed

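RNA was measured in 9 libraries of F3 P6 cells, reverse transcribed with an oligo(dT) primer and sequenced in read pairs. The deposited signal values were made by the authors, who trimmed reads with Trim Galore, aligned them to GRCm38/mm10 with STAR, counted them at RepeatMasker LTR loci with a modified ERVmap pipeline, and scaled the counts per library with TMM in edgeR, on a CPM scale. The versions of these tools, and how spliced, multi-mapped and stranded reads were counted, are not given in the sources used here. Every value was a whole multiple of the smallest value above 0 in its library (100%), so whole reads could be recovered, and the limma test on CPM was kept as the main test with count tests as alternatives. The deposited MBD-seq counts are whole reads per window as counted by the authors, with no normalization, and the aligner is not given in the sources used here.

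Tests were run at loci whose mean over the 9 libraries reached 5 units, 1 unit being 0.197 CPM (the median over libraries of the value of 1 read), with limma 3.58.1 (trended variance, empirical Bayes) on log2(CPM + 1 unit) in R 4.3.3, without covariates. Totals per gene (loci in 1 gene and no other) and per species outside genes needed a mean of at least 20 units. GENCODE M21 gene models of GRCm38 gave positions in genes, and printed sequences were read from the RefSeq copy of GRCm38. Families and shares by place were compared with two-sided exact permutation tests. MBD windows were tested with edgeR 4.0.16 after its own filter for low counts. Alternatives were other pseudocounts, filters and scalings, edgeR quasi-likelihood and likelihood ratio tests and DESeq2 1.42.0 on recovered reads, identical loci counted once, loci outside genes or in introns only, and each library left out. A fit leaving out DMSO libraries 3 and 4 was added after seeing the data.

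By the rule for names, all called loci, the called gene totals and 2 to 4 members of each list in order of mean level were named, those of a gene with several called loci by repeat name with values for 1 or 2, and with sequences for the genes of called loci in order of p, none on chromosome 18. List members named for a low p, and genes described as neighbours, were chosen after their values were seen. A list member that the rule would name is not reported here. The members and lists were chosen with earlier results of these data known. No library pair of a group differed by as little as counting noise (chi-square per degree of freedom 1.59 to 2.61). On simulated data with 104835 loci, 37% of 2-fold and 85% of 4-fold changes were recovered at a coefficient of variation of 0.2, and with 8442 gene totals 91% and 100%. The counts limit low loci most, and intervals from reads cover counting error only. F1 germ cell RNA and F1 MBD-seq were not used here.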

Additional observations from a re-analysis of the deposited data

Results flagged for a closer look

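Of 114 groups of 4 or 5 libraries checked for a library that stood apart, 1 was picked out, where chance alone gives about 1 in 20 groups. It was the DMSO group at the IAPEY4_I-int copy at chr16:3625352-3628768, where DMSO library 4 had 28 CPM (142 reads) against 7.14, 10.1 and 7.44 CPM in the other DMSO libraries, a gap of 0.856 of the range. The TBT libraries had 0.340 to 2.28 CPM, below all 4 DMSO libraries.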

How the results depend on the processing

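The 36 called loci kept their sign in every setting tried, and 7 were called in every setting in which they were tested. The RMER17A2 and RLTR24 pairs of Akr1e1 are among these 7 and hold the same reads in all 9 libraries. The 21 loci called higher and 15 called lower became 13 higher with a pseudocount of 0.25 unit, 59 and 24 with no filter, 33 and 32 with edgeR's quasi-likelihood test, 198 and 156 with its likelihood ratio test, 80 and 35 with DESeq2, and 0 and 1 over loci outside genes only, where fewer loci were tested. Without DMSO libraries 3 and 4 they were 13 and 8. With each library left out, higher calls ranged from 2 (without TBT library 6) to 123 (without DMSO library 2), and they were 6 to 8 without TBT library 5, 7, 8 or 9 and 39 without DMSO library 4. Gene totals called higher and lower became 12 and 13 with the likelihood ratio test, 41 and 25 with DESeq2, and 1 and 0 without DMSO libraries 3 and 4, and higher calls ranged from 0 to 1 (without DMSO library 2) with each library left out. Species totals called lower became 1 with the likelihood ratio test and 1 with DESeq2, and ranged from 0 to 1 (without DMSO library 1). The difference in the share of intron reads, TBT minus DMSO, was 0.00695 percentage points. It was -0.00383 without DMSO libraries 3 and 4, and -0.0549 to 0.0581 with each library left out. For reads outside genes it was 0.0362, 0.0862 without DMSO libraries 3 and 4, and -0.00248 to 0.0803 with each library left out. In exons these values were -0.0431, -0.0823 and -0.0590 to -0.0253. The cause of these shifts was not tested. Taking each of the 36 called loci in each setting that tested it, the call was kept 512 times and lost 184 times. These tallies count loci with identical reads separately. For Akr1e1 and 11 other gene totals of low p, the side of the threshold was kept 214 times, the call of Akr1e1 was lost once and a call was gained 23 times. No sign changed in these. No paired analysis was possible because the DMSO libraries are numbered 1 to 4 and the TBT libraries 5 to 9, so that no number is shared.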

Other observations

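Cdh13, which encodes T-cadherin, an adhesion protein of vessels and other cells, had 0.595, 0.225, 109.1 and 126.1 CPM at its LTR loci in DMSO libraries 1 to 4 and 52.9, 91.9, 49.9, 67.2 and 41.3 CPM in TBT libraries 5 to 9. DMSO libraries 1 and 2 were near 0 and DMSO libraries 3 and 4, those with high germ cell markers, were above every TBT library, so the groups overlapped. With all libraries Cdh13 was not called (limma FDR 0.630). Without DMSO libraries 3 and 4, chosen after seeing the data, it was the only gene total called, at a log2 fold change of 6.66 (limma FDR 0.000121). Its 390 loci with reads, of 475 in all, held 18 distinct profiles, so most of them repeat the same reads. Cdh13 ranged from 4.16 to 198.1 CPM in F1 P6 cells, from 48.9 to 588.0 in F3 P4 cells and from 17.2 to 885.0 in F3 P5 cells, in tables normalized separately.

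Prune2, which is named for its likeness to a phosphatase family, had 16, 0, 0 and 2 reads over 87 LTR loci in DMSO and 45, 36, 37, 47 and 73 reads in TBT, with groups apart and no call (limma FDR 0.326). In F1 P6 cells it had 2.70 ± 2.82 CPM in DMSO and 4.33 ± 3.12 in TBT and was too low to test. Fbn2, which encodes the fibrillin of fetal elastic fibres, had 176.9 ± 24.5 CPM in DMSO and 269.1 ± 25.0 in TBT (0.61, limma FDR 0.299), and Sema5a, a guidance protein, 361.1 ± 99.4 and 627.1 ± 77.6 CPM (0.82, limma FDR 0.299). These genes were named after their values were seen.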
